A study of Mus musculus with 48 samples.

Results

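Transcript levels were compared in mouse hippocampus between the arm labelled CS (8 arrays) and the arm labelled NH (10 arrays), 18 of the 48 arrays in the series. Members were chosen by their labels: tissue hippocampus and title prefix CS or NH. The series sets associative against nonassociative learning and also holds 8 hippocampus arrays of an arm labelled FC and 22 amygdala arrays. The labels give the arms as codes, taken here to stand for the conditioned stimulus without conditioning (CS), naive home cage animals (NH) and fear conditioning (FC). The sources used here give no strain, age, sex, stimulus or time from session to dissection. All groups share one procedure, in which total RNA was turned into biotin-labelled cRNA and hybridised to one-colour oligonucleotide arrays. Separate animals are not stated for the arrays of an arm, and p-values therefore reflect array-to-array spread that could be partly technical.

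The hippocampus supports memory for places, and handling, a new place or a new sound is enough to activate some of its neurons. Within minutes of such activity, calcium and cyclic AMP signals reach transcription factors that are already present in the nucleus, such as CREB and SRF, and these switch on the immediate early genes without new protein synthesis. Many immediate early genes encode transcription factors themselves (Fos and Jun family subunits of AP-1, Egr zinc fingers, Nr4a orphan receptors), and others encode brakes on the same signals, such as the phosphatase Dusp1.

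Fos was the gene that passed the test here, and Dusp1, Nr4a1 and Junb were the genes whose levels ran most like it over the hippocampus arrays. The 250 bases before an annotated start of these 4 genes are shown because they hold the letters through which CREB is known to act on Fos. They come from RefSeq's promoter table (build GRCm38.p6), 5′ to 3′ on the gene's strand: Fos at chr12:85473640-85473889 (plus), Dusp1 at chr17:26508473-26508722 (minus), Nr4a1 at chr15:101266596-101266845 (plus) and Junb at chr8:84978749-84978998 (minus). Capitals mark the cyclic AMP response half-site, TGACG or its reverse complement CGTCA, and the TATAA letters.
Fos: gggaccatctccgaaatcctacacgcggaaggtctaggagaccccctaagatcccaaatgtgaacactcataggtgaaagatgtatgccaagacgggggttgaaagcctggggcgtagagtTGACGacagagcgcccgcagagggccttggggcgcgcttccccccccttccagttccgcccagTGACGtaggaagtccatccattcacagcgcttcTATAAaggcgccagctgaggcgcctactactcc
Dusp1: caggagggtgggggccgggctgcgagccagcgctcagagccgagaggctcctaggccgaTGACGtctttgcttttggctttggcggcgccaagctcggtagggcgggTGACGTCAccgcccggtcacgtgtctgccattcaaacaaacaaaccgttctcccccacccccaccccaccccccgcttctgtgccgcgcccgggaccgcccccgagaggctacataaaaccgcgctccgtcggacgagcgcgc
Nr4a1: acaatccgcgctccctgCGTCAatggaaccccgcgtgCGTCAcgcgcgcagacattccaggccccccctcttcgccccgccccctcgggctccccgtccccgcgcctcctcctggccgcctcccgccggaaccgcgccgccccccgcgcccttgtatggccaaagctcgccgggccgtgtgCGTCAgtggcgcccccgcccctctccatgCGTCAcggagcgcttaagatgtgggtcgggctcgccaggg
Junb: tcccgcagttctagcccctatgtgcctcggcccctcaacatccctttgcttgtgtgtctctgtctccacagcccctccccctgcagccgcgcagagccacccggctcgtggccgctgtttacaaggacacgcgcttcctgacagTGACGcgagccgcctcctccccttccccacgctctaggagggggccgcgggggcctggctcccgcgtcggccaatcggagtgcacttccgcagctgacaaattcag
The Fos stretch held 2 half-sites, which began 129 and 66 bases before the start, and TATAA 33 bases before it. The Dusp1 stretch held 3 half-sites, of which a pair overlapped and formed the full palindrome TGACGTCA beginning 143 bases before the start. The Nr4a1 stretch held 4 half-sites and the Junb stretch 1. At least 1 half-site was present in 17.8% of all 32851 promoters of the table and in 24.3% of the 8412 promoters of genes on the array. The full palindrome was present in 1.55% of all promoters and 4 or more half-sites in 0.137%. Of 57 promoters of immediate early genes on the array, which belong to 38 of 50 genes, 27 held a half-site (47.4%). Among these 57, 8.77% held the full palindrome, 3.51% held 4 or more half-sites and 28.1% held TATAA. None of the 4 stretches held the exact CArG box, the SRF motif, searched as CCWWWWWWGG with W for A or T. Variants that depart from these letters were not searched. The exact box was present in 1.47% of all promoters and in 7.02% of the immediate early ones, all of them of Egr2. Only these 250 bases were searched, so the count cannot tell whether the genes have a CArG box further from the start. These matches describe the sequence and were not tested as binding sites.

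Every hippocampus array carries a processing batch in its labels, and the batches hold the arms unevenly. Batch 4 held 3 CS and 2 NH arrays, batch 6 held 1 CS and 2 NH, batch 5 held 4 CS and no NH, and batch 7 held 6 NH and no CS. With batch as a block, the differences below therefore rest on the 4 CS and 4 NH arrays of batches 4 and 6, linked in part through the FC arrays of these batches and of batch 5. Median deposited intensity per array lay between 76.6 and 80.8, and pairwise r over all probe sets between 0.987 and 0.998. The labelled tissue was checked by percentile within the array, and 7 of 14 hippocampal neuron markers had hippocampus percentiles wholly above those of amygdala. Lct and Prox1 were among them, while Wfs1 and Calb1 were wholly below. Of 6 amygdala and piriform markers, 2 were wholly below in hippocampus and 1, Rspo2, was wholly above. The share over all probe sets was not counted, so these counts describe the markers and do not test the label. In whole tissue, fewer cells of a type and less RNA per cell cannot be told apart. NH array 100 of batch 4 had the lowest median r with the other hippocampus arrays (0.9897). It was low in some neuronal genes, with a Camk2a level of 6.92 against 8.28 to 9.46 in the other NH arrays. In others, such as Cck (11.07) and Bdnf (9.33), it was the highest NH array. CS array 109 of batch 4 had a Map2 level of 5.60 against 6.57 to 8.19 in the other CS arrays. For many of the lists and genes named, values without these arrays are also given.

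The comparison of CS with NH asked which transcripts differ after the session without conditioning. Fos was higher in CS by 0.98 ± 0.15 on the log2 scale (standard error; 95% interval 0.68 to 1.28), a 1.97-fold difference, and was the single probe set of 12422 that passed the test (limma with batch as a block, Benjamini-Hochberg adjusted p = 0.00442). That is 0.00805% of probe sets in the higher direction and 0% in the lower direction. Without adjustment, limma gave p under 0.05 for 121 probe sets in the higher direction (0.974%) and 93 in the lower direction (0.749%). These 214 compare with 621.1 that a uniform spread of p-values would give. The median 95% interval, before any adjustment, reached 0.16 to either side of a log2 difference, and Dusp1 (0.39) and Rhoa (0.29), next by p after Fos, did not pass the adjusted threshold. The plot of the difference against p shows Fos set off from all other probe sets.

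**Figure D1:**
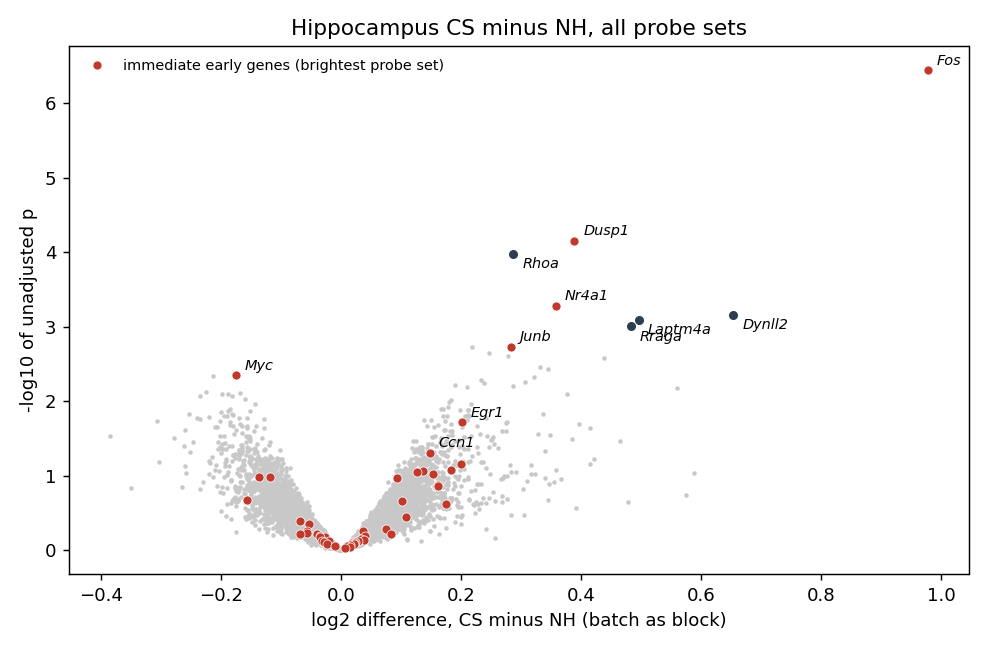
Each point is 1 of 12422 probe sets, with the log2 difference CS minus NH in hippocampus on the x axis and -log10 of the unadjusted p on the y axis; red points are immediate early genes at their brightest probe set, and those with unadjusted p under 0.05 are named. Fos lies alone at a difference of 0.98, and Dusp1, Rhoa and Nr4a1 follow at 0.39, 0.29 and 0.36.

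Fos encodes an AP-1 subunit that is widely used as a mark of recently active neurons. In batch 4 the CS arrays stood at log2 intensities of 6.62, 6.80 and 6.59, and the NH arrays at 5.26 and 6.12. In batch 6 the CS array stood at 6.61 and the NH arrays at 5.47 and 6.04. CS lay above NH in both batches, with a difference of 0.98 in batch 4 and 0.85 in batch 6. Over all 18 arrays CS ran from 6.54 (median 6.61) to 7.03 and NH from 4.85 (median 5.43) to 6.12, with means of 6.67 ± 0.17 (SD, n = 8) and 5.44 ± 0.41 (SD, n = 10). The arms did not overlap, and Fos was the only 1 of 12422 probe sets of which all 8 CS arrays lay above all 10 NH arrays. None had all CS arrays below all NH arrays. The CS arrays lay closer together than the NH arrays. These pooled ranges include batch 5 without NH and batch 7 without CS, where arm and batch cannot be told apart. Mean NH was 5.26 in batch 7 against 5.69 and 5.76 in batches 4 and 6.

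The call for Fos depended on which arrays shared the fit. It was lost with only the CS and NH arrays in the fit (0.93 ± 0.18, adjusted p = 0.616, limma), without NH array 100 (0.79, adjusted p = 0.142) and without NH array 78 (0.89, adjusted p = 0.0537). It was also lost without both NH 100 and CS 109 (0.77, adjusted p = 0.299), within batch 4 alone and within batch 6 alone. A second, dimmer Fos probe set differed by -0.03 ± 0.12, with CS at 4.93 ± 0.21 (SD, n = 8) and NH at 4.95 ± 0.20 (SD, n = 10). The average over both probe sets gave 0.47 (adjusted p = 0.264). Apart from the dimmer probe set taken alone, Fos was higher in CS in each of these fits.

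An exact permutation of arm labels within batches 4 and 6, two-sided over 30 arrangements, uses no model of the spread. It gave p = 0.0333 for Fos, Dusp1 and Egr1, the smallest p the design allows, p = 0.0667 for Nr4a1 and p = 0.133 for Junb by the exact permutation test. Adjusted over these 5 genes, the exact permutation values were 0.0556 for Fos, Dusp1 and Egr1, 0.0833 for Nr4a1 and 0.133 for Junb. None passed 0.05, but with a smallest p of 0.0333 no gene could pass after adjustment by its own values alone. No conclusion is drawn from the adjusted values. The 5 genes were chosen with earlier results of these data known, so this is no independent test. Of all probe sets, 1.96% had CS above every NH array of the same batch in both batches, and 1.8% had CS below.

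The other immediate early genes were described at the brightest probe set of each gene. Of 50 with a probe set, 32 were higher and 18 lower in CS, with a median difference of 0.02. Over all 8251 genes 4088 were higher (49.5%), with a median of -0.0006. Fos was the only 1 of the 50 to pass. In limma, 6 in the higher direction and 1 in the lower direction had unadjusted p under 0.05. Over all 8251 genes these were 76 and 44. With CS above every NH array of the same batch in both batches stood 5 of the 50, and with CS below stood 3. Over all probe sets these shares were 1.96% and 1.8%. The median of the 50 genes was 0.05 without NH 100, where 33 were higher, and 0.01 without CS 75, where 26 were higher. Within batch 4 alone it was 0.004, with 25 higher and 25 lower, and within batch 6 alone it was 0.04.

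**Figure D2:**
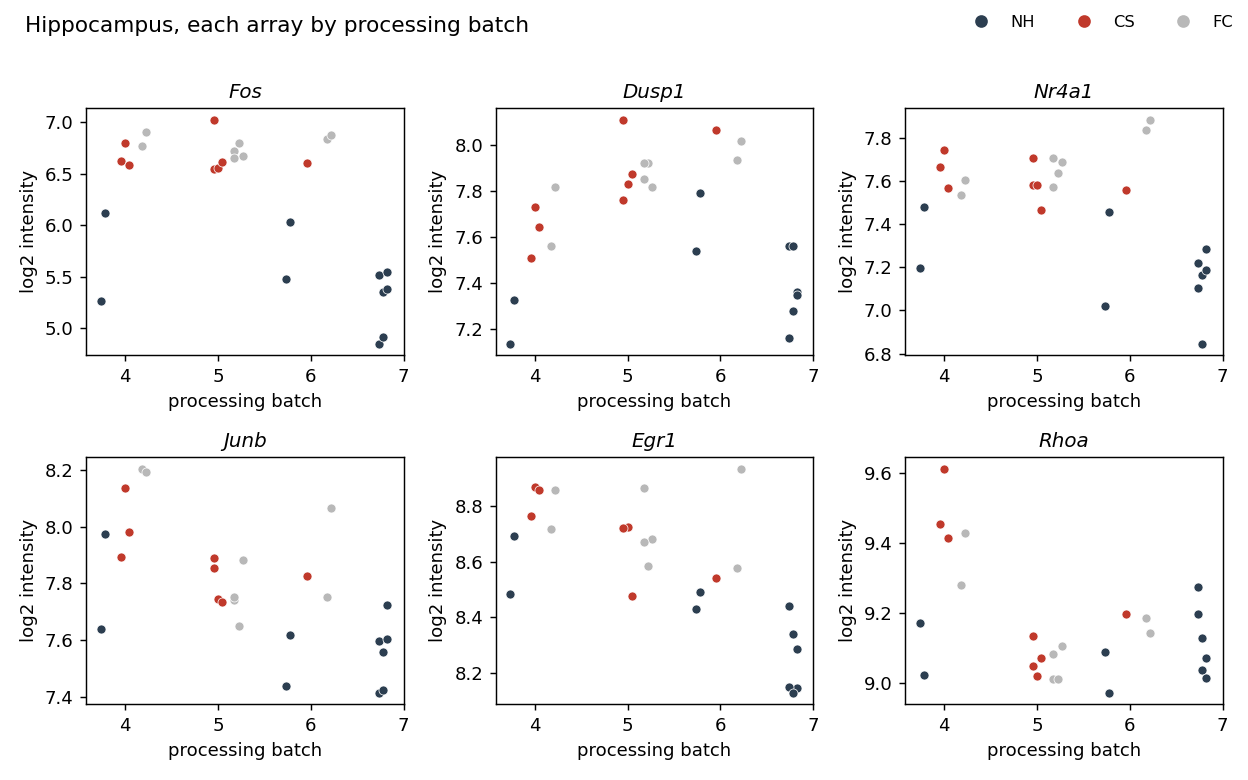
Log2 intensity (y axis) of 6 genes in each of the 26 hippocampus arrays by processing batch (x axis), with NH in dark blue, CS in red and FC in grey; each point is 1 array. In Fos the red points lie between 6.54 and 7.03, above every NH point, and in Dusp1, Nr4a1, Junb, Egr1 and Rhoa the arms overlap when batches are pooled.

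Among the AP-1 subunits, 7 of 8 were higher, but apart from Fos by small amounts. Junb, a partner of Fos, was higher by 0.28 ± 0.08 at one probe set and 0.25 ± 0.07 at the other, and neither passed (adjusted p = 0.9999 for both, limma). Its CS arrays of batch 4 stood at 7.89, 8.13 and 7.98 against NH at 7.64 and 7.97, and that of batch 6 at 7.83 against 7.44 and 7.62. One NH array of batch 4 thus lay among the CS arrays. Jund, a constitutive subunit and the brightest of the family, differed by 0.10 ± 0.08, and Jun by -0.02 ± 0.07. Fosb, whose stable short form is known to build up after repeated stimulation, differed by 0.04 ± 0.06 and Fosl2 by 0.03 ± 0.09. Their intervals reached no further than 0.27 in the higher direction, so a difference of the size seen in Fos lay outside them.

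The phosphatase Dusp1, which inactivates MAP kinases, came after Fos with 0.39 ± 0.08 (adjusted p = 0.431, limma). In batch 4 it stood at 7.51, 7.73 and 7.64 in CS and at 7.14 and 7.33 in NH. In batch 6 it stood at 8.06 in CS and at 7.54 and 7.79 in NH. CS lay above NH within each batch, by 0.40 in both, while over all batches CS ran from 7.51 to 8.11 and NH from 7.14 to 7.79 and overlapped. Dusp6, a phosphatase directed at ERK, was higher by 0.20 ± 0.11, with 0.36 in batch 4 and -0.16 in batch 6, and stood at 0.06 without NH 100.

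The orphan nuclear receptor Nr4a1 was higher by 0.36 ± 0.09 (adjusted p = 0.9999, limma). Its CS arrays of batch 4 stood at 7.67, 7.75 and 7.57 and its NH arrays at 7.20 and 7.48, and in batch 6 CS stood at 7.56 and NH at 7.02 and 7.46. CS was above NH in each batch, by 0.32 in both. Nr4a2, a related receptor, was higher by 0.18 ± 0.10 at its brighter probe set and 0.13 ± 0.08 at the other, and without NH 100 by 0.09 at the brighter one. Without the batch term Nr4a1 did pass (0.41, adjusted p = 0.00546, limma), a fit in which batches 5 and 7, each of a single one of these arms, also carry the difference.

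Of 6 zinc finger factors 5 were higher. Egr1, a factor tied to synaptic plasticity, was higher by 0.20 ± 0.08, with CS at 8.76, 8.87 and 8.86 against NH at 8.48 and 8.69 in batch 4. In batch 6 CS stood at 8.54 and NH at 8.43 and 8.49, so the arms were apart by 0.24 in batch 4 and 0.08 in batch 6. Its dimmer probe set differed by -0.05 ± 0.11. Without NH 100 the brighter Egr1 probe set stood at 0.15 (95% interval -0.03 to 0.34). Klf10 differed by 0.15 ± 0.09 and Egr2 by 0.13 ± 0.07, and Klf6 by -0.14 ± 0.08, with CS below NH in both batches. None of these passed.

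The growth arrest and survival genes had 8 of 10 members higher, with a median of 0.07, and the synaptic and secreted effectors 5 of 13, with a median of -0.03. Ier2 and Mcl1, the latter a survival protein of the Bcl-2 family, were each higher by 0.16, and Gadd45b by 0.14 ± 0.08. A dimmer Gadd45b probe set stood at means of 5.94 (CS) and 5.97 (NH) in batch 4, and 5.56 and 5.59 in batch 6. Ccn1, a secreted matrix protein, was higher by 0.15 ± 0.07. Effectors known to act at synapses stood near 0: Homer1 differed by 0.04 ± 0.08, Plk2 by 0.02 ± 0.08 and the neurotrophin Bdnf by -0.06 ± 0.11. Inhba differed by -0.12 ± 0.07 and Ptgs2, a prostaglandin synthase, by -0.16 ± 0.12. Among the other transcription factors 3 of 9 were higher, and Myc was the immediate early gene furthest in the lower direction (-0.18 ± 0.06). Myc stood between 3.04 and 3.37 in CS and between 3.24 and 3.44 in NH, close to the lowest levels on the arrays, and did not pass.

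**Figure D3:**
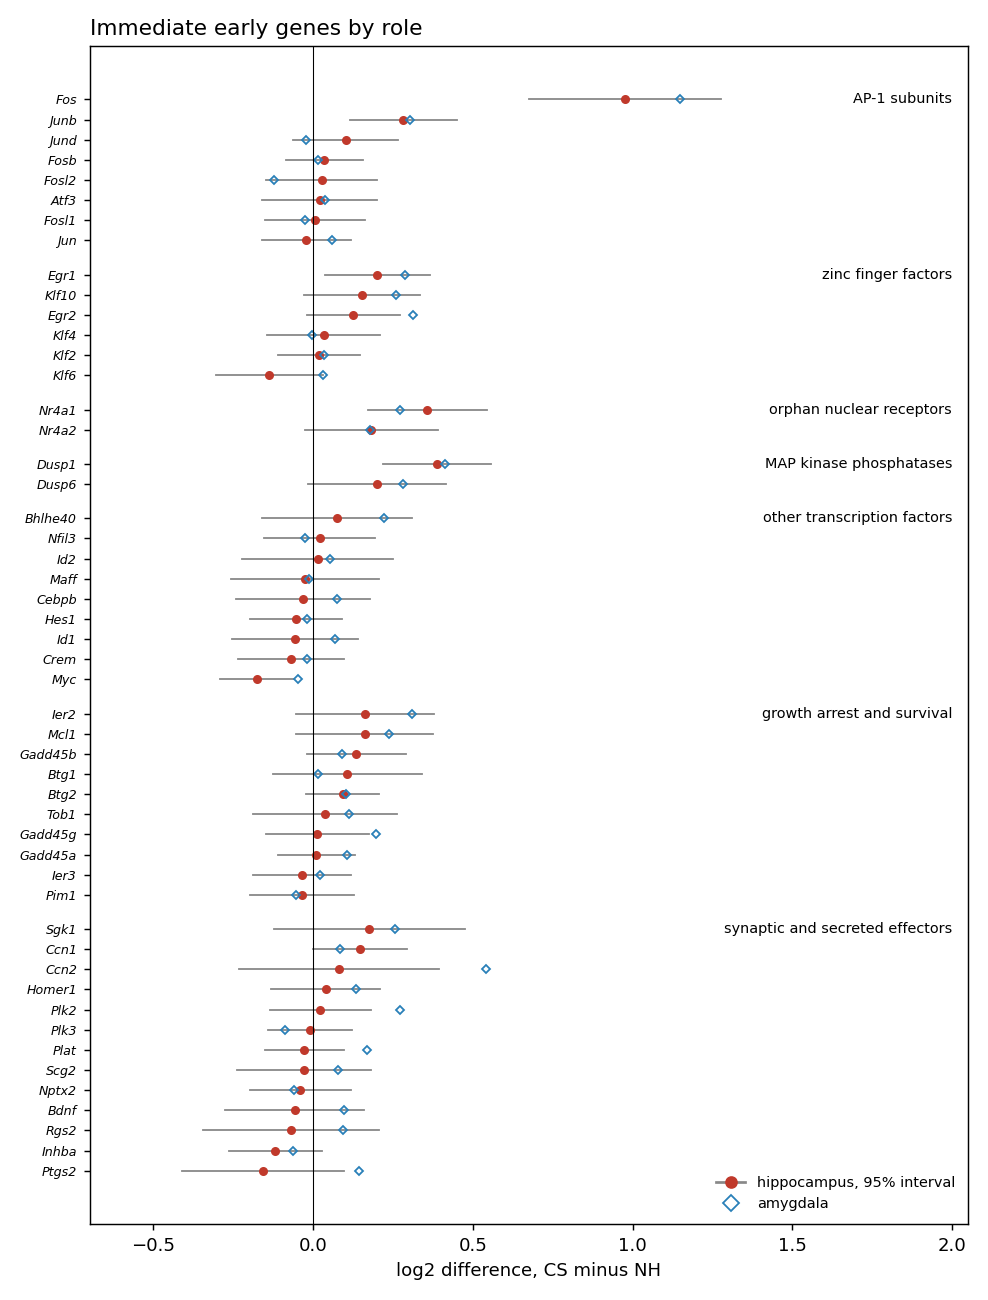
Log2 difference CS minus NH (x axis) of 50 immediate early genes (y axis) grouped by role; red points with grey lines are hippocampus with the 95% interval, and open blue diamonds are the same difference in amygdala. Fos at 0.98 lies beyond all others, and most intervals span 0.

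The genes most like Fos were sought over the 26 hippocampus arrays after batch means were removed. Dusp1 had r = 0.89, Nr4a1 0.86, Junb 0.85 (0.72 at its other probe set) and Klf10 0.73. All 4 are on the immediate early list. Differences between arms remain in these values, and the arrays share batches and a normalization, so r is a description.

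Outside the immediate early genes, Rhoa, a small GTPase that governs the actin skeleton, had the smallest p. It was higher by 0.29 ± 0.06 (adjusted p = 0.431, limma). In batch 4 its CS arrays stood at 9.45, 9.61 and 9.42 against NH at 9.17 and 9.02, and in batch 6 at 9.20 against 9.09 and 8.97. CS was above NH within both batches, by 0.40 and 0.17, but the CS arrays of batch 5 lay at 9.02 to 9.13, within the range of the NH arrays of batch 7 (9.01 to 9.27). The other Rhoa probe sets differed by 0.14 ± 0.08 and 0.02 ± 0.07. Vcam1, an adhesion molecule of endothelium, was higher by 0.22 ± 0.06 and Erf, a repressor of the ETS family, by 0.28 ± 0.08, each at 1 probe set, while the other probe sets of these genes differed by -0.02 to 0.002.

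The largest differences after Fos among the 12 higher probe sets named came from batch 4 alone. Dynll2, a dynein light chain found in spines, was higher by 0.65 ± 0.17, with 1.17 in batch 4 and -0.24 in batch 6. Its NH arrays of batch 4 stood at 8.89 and 9.05, and the remaining 8 NH arrays at 10.06 to 10.48. Both NH arrays of batch 4 were thus low, whereas the CS arrays of that batch, at 10.08, 10.24 and 10.11, lay with the other NH arrays. Laptm4a, a lysosomal membrane protein, was higher by 0.50 ± 0.13 (0.79 and -0.01 in batches 4 and 6). Rraga, a GTPase that relays amino acids to mTORC1, was higher by 0.48 ± 0.13 (0.76 and -0.05), and Tmed9, a cargo receptor of the early secretory route, by 0.44 ± 0.13 (0.87 and -0.14). None of the 4 passed, and without NH 100 they stood at 0.46, 0.34, 0.21 and 0.25. Within batch 4 alone this Dynll2 probe set was the 1 that passed (adjusted p = 0.0218, limma). The dimmer Dynll2 probe set did not show such a difference. It stood at means of 7.98 (CS) and 7.92 (NH) in batch 4, and 7.90 and 7.95 in batch 6.

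**Figure D4:**
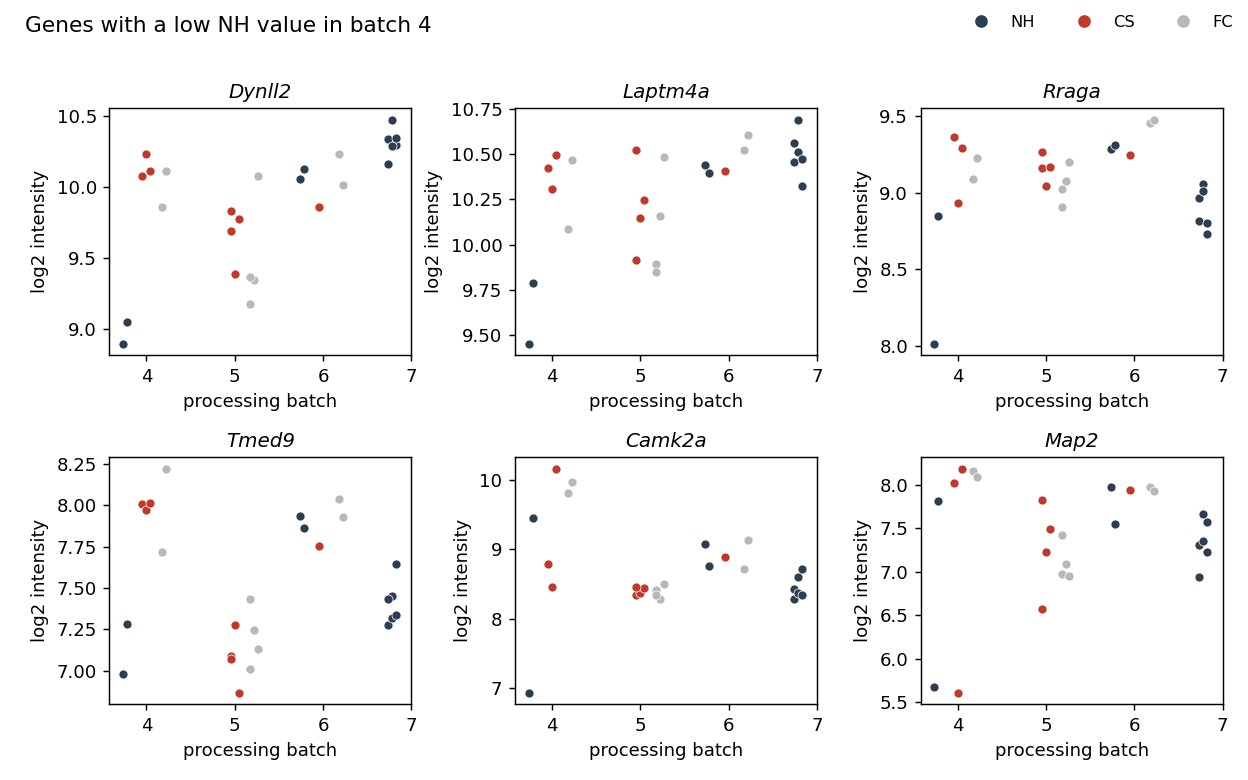
Log2 intensity (y axis) of 6 genes in each of the 26 hippocampus arrays by processing batch (x axis), with NH in dark blue, CS in red and FC in grey. The NH arrays of batch 4 lie at 8.89 and 9.05 in Dynll2, and NH 100 lies lowest of its arm at 6.92 in Camk2a and 5.67 in Map2.

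Among the genes named, differences in the lower direction were smaller. The 12 lower probe sets with the smallest p ranged from -0.14 (Ttk) to -0.24 (Lamb1), and none passed. Gpn3, a GTPase that helps to bring RNA polymerase II into the nucleus, differed by -0.21 ± 0.07. Its CS arrays ran from 5.85 to 6.07 and its NH arrays from 5.89 to 6.37 and overlapped. NH 100 was the highest, and without it the difference was -0.14 (95% interval -0.28 to 0.01). Lamb1, a laminin chain of the basement membrane, differed by -0.24 ± 0.08 at its brighter probe set and -0.03 ± 0.07 at the other. Without NH 100 the brighter one stood at -0.17 (95% interval -0.36 to 0.01). Ramp2, a receptor partner needed for adrenomedullin signalling in vessels, differed by -0.18 ± 0.06. Lamb1 and Ramp2 are both on the vessel marker list, of which 9 of 19 members were higher and 10 lower (median -0.003).

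Genes that carry the signal to the immediate early genes (receptor-coupled cyclases, kinases, CREB and SRF partners) had 20 of 38 members higher and none passed, with a median of 0.002. Adcy9, an adenylyl cyclase, differed by -0.25 ± 0.11 and Creb1 by -0.05 ± 0.07. A dimmer Adcy9 probe set stood at means of 7.65 (CS) and 7.69 (NH) in batch 4, and 7.24 and 7.32 in batch 6. Camk2a, the calcium-dependent kinase of excitatory synapses, differed by 0.59 ± 0.34, and by -0.14 ± 0.23 without NH 100. Elk1, an SRF partner, differed by 0.16 ± 0.10, and without NH 100 by -0.01, where Adcy9 stood at -0.10.

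Glucocorticoid-responsive genes, which respond to the stress hormone corticosterone, had 20 of 27 members higher with a median of 0.03, and none passed. This list also holds Dusp1. Ddit4, an inhibitor of mTORC1, was higher by 0.29 ± 0.10, with CS at 7.43, 7.87 and 7.63 against NH at 7.19 and 7.40 in batch 4. In batch 6 its CS array stood at 7.50 against NH at 7.33 and 7.45. The arms were thus apart in both batches, by 0.35 and 0.12. Without both NH 100 and CS 109 Ddit4 differed by 0.18 (95% interval -0.03 to 0.39). The clock gene Per1 differed by 0.16 ± 0.08, the receptor gene Nr3c1 by 0.41 ± 0.22, Fkbp5 by 0.06 ± 0.06 and Tsc22d3 by -0.04 ± 0.08. Nr3c1 ran from 3.41 to 4.97 in CS, where CS 109 was lowest, and from 3.51 to 4.91 in NH, where NH 100 was lowest. Without NH 100 its difference was 0.20 ± 0.23.

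Without NH 100 the median of 10 of 28 gene lists took the opposite sign, so list counts are given with and without that array where they turned. In the neuronal lists most members were higher with all arrays. Of the ion channels 17 of 24 were higher (median 0.05), of GABA genes 9 of 11 (0.05), of glutamate receptors 9 of 12 (0.02), of the postsynaptic density 8 of 11 (0.04) and of the synaptic vesicle 11 of 18 (0.02), and no member passed. Kcnj4, an inward rectifier potassium channel, was higher by 0.33 ± 0.10, Kcna4, an A-type potassium channel, by 0.16 ± 0.07 and the scaffold Dlg1 by 0.17 ± 0.07. The direction of 4 of these 5 lists turned without NH 100. Without it, 12 of 24 ion channel genes were higher (median -0.01), 5 of 11 GABA genes (-0.01), 1 of 12 glutamate receptors (-0.07) and 8 of 18 synaptic vesicle genes (-0.01). The postsynaptic density kept its direction (7 of 11, median 0.05). Without both NH 100 and CS 109, 14 of 24 ion channel genes (0.02) and 8 of 11 GABA genes (0.05) were higher. So were 11 of 18 synaptic vesicle genes (0.02), while glutamate receptors had 4 of 12 higher (-0.03). Kcnj4 stood at 0.18 ± 0.10 without NH 100 and at 0.07 without a batch term.

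Genes of the respiratory chain leaned to the lower side, with 27 of 34 lower and a median of -0.05. Uqcrc2, a core subunit of complex III, differed by -0.19 ± 0.10 and Cox7a2, a subunit of complex IV, by -0.11 ± 0.09. Without NH 100, 24 of 34 were higher (median 0.03), and Uqcrc2 and Cox7a2 stood at -0.09 and 0.003. Without both NH 100 and CS 109, 18 of 34 were higher (0.005), and without a batch term 20 of 34 (0.009). Ribosomal proteins likewise had 12 of 17 lower, and 12 of 17 higher without NH 100. Endoplasmic reticulum chaperones and regulators had 13 of 18 lower (median -0.05), and again 13 of 18 without NH 100 and 14 of 18 without both NH 100 and CS 109. Among them Xbp1, a factor of the unfolded protein response, differed by -0.25 ± 0.10, the chaperone Hspa5 by -0.19 ± 0.16 (-0.03 without NH 100) and Calr by -0.13 ± 0.07. Xbp1 stood at -0.19 ± 0.11 without NH 100. No member of these 3 lists passed.

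In the remaining pathway lists no member passed either. Chromatin enzymes had 10 of 17 members higher, neuropeptides 11 of 20, clock genes 5 of 16, heat shock and cytosolic chaperones 9 of 17 and neurotrophins and their receptors 2 of 3, with medians from -0.01 to 0.04. Without NH 100, clock genes had 9 of 16 higher (median 0.01) and neurotrophins and their receptors 1 of 3 (-0.07). Without CS 109, heat shock and cytosolic chaperones had 6 of 17 higher (-0.04).

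**Figure D5:**
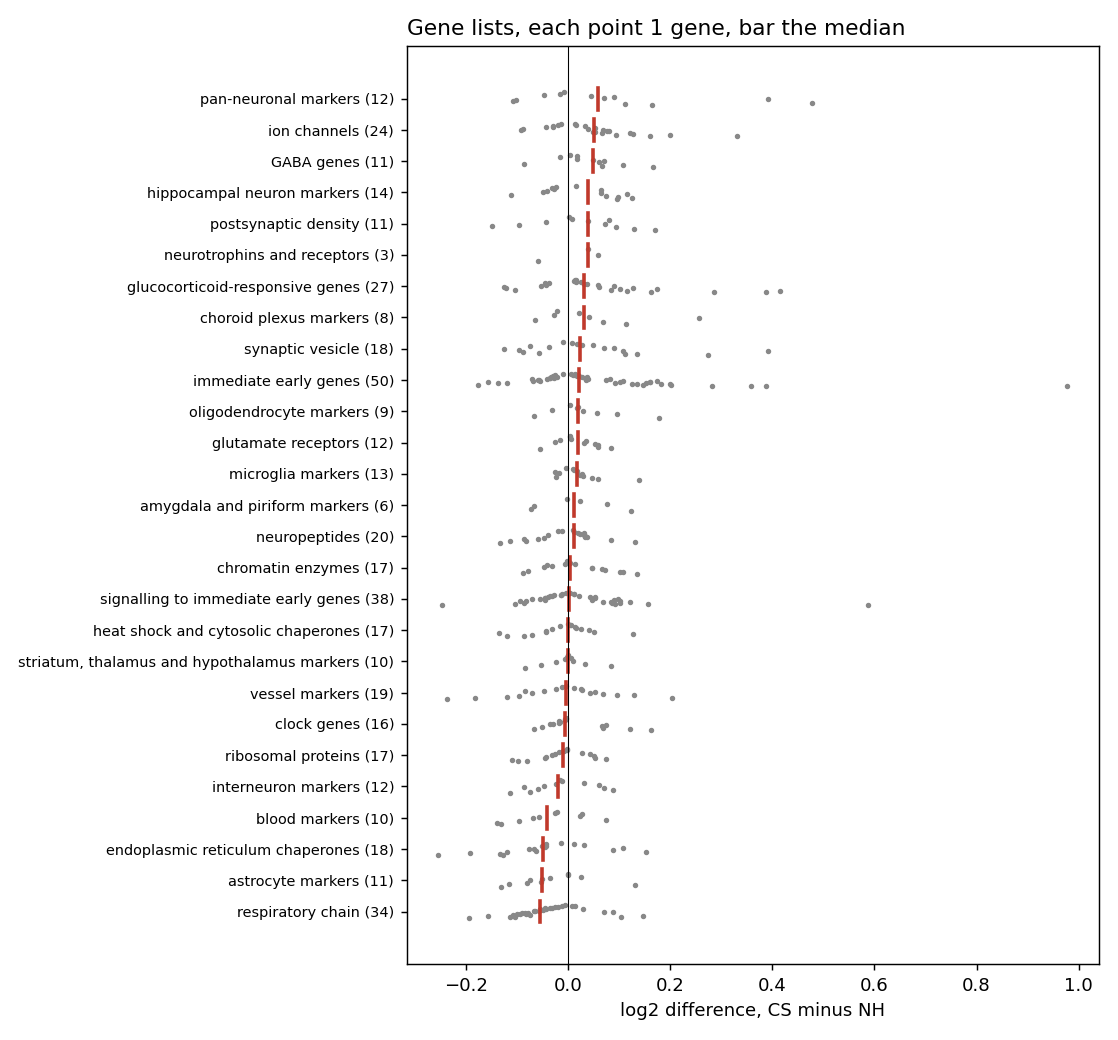
Log2 difference CS minus NH (x axis) of every gene with a probe set in the gene lists reported (y axis, number of genes in parentheses), each grey point 1 gene and each red bar the list's median. Medians lie between -0.05 and 0.06, and Fos is the point at 0.98.

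Marker lists of cell types were set beside these results as summed intensities. Astrocyte markers summed to 7724 to 9724 in CS and 8043 to 9512 in NH, oligodendrocyte markers to 4426 to 5563 and 4161 to 5400, and microglia markers to 2042 to 2409 and 2077 to 2417. The ranges overlapped in all 11 marker lists. Higher in CS were 4 of 11 astrocyte, 7 of 9 oligodendrocyte, 9 of 13 microglia, 4 of 12 interneuron, 5 of 8 choroid plexus and 3 of 10 blood markers. Of markers of neighbouring regions, 5 of 10 for striatum, thalamus and hypothalamus and 3 of 6 for amygdala and piriform cortex were higher, and no marker passed. Without NH 100 these became 1 of 10 and 4 of 6, and 6 of 12 interneuron, 2 of 8 choroid plexus and 1 of 10 blood markers were higher. Choroid plexus markers also had 2 of 8 higher without CS 109, and 1 of 8 without both arrays. Of hippocampal neuron markers 8 of 14 were higher (median 0.04) and of pan-neuronal markers 7 of 12 (0.06, and 0.005 without NH 100). Ttr, the main choroid plexus product, stood at 9.23 in CS 109 and 7.89 in CS 105 but at 8.72 in NH 82, with other arrays of these arms at 5.47 to 6.75. Its difference was 0.26 ± 0.64, with 1.70 in batch 4 and -1.53 in batch 6, and the part of choroid plexus in other differences was not tested.

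For the same genes, the arm labelled FC is given side by side, since it shares the NH arrays. FC minus NH was 1.09 ± 0.15 for Fos (adjusted p = 0.000521, limma), 0.38 ± 0.08 for Dusp1, 0.43 ± 0.09 for Nr4a1, 0.34 ± 0.08 for Junb and 0.25 ± 0.08 for Egr1, and Fos was again the 1 probe set that passed.

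In amygdala CS minus NH was 1.15 ± 0.15 for Fos (adjusted p = 0.000326, limma), again the 1 probe set that passed. Dusp1 stood at 0.41 ± 0.08, Junb at 0.30 ± 0.06, Egr1 at 0.29 ± 0.08 and Nr4a1 at 0.27 ± 0.06 there. Behind the batch digit, several amygdala titles join a pair of numbers that also name hippocampus arrays of the same arm, so some animals may have given both tissues. Nothing in the labels states it, and the test between tissues treats all arrays as independent. The hippocampal difference in Fos minus that in amygdala was -0.17 (95% interval -0.61 to 0.27, adjusted p = 0.999, limma). No probe set passed this test of the difference between tissues, and 267 had unadjusted p under 0.05. Plk2 had the values 0.02 in hippocampus and 0.27 in amygdala, a difference of -0.25 (95% interval -0.46 to -0.04), and did not pass. The median of the 50 immediate early genes was 0.02 in hippocampus and 0.09 in amygdala, and that of the respiratory chain -0.05 and 0.09.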

How the data were processed

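Expression was measured on one-colour arrays in 26 hippocampus and 22 amygdala samples. Each deposited value is a linear intensity of 1 probe set, made with RMA per the submitters' processing notes. The sources used here give neither its version nor its settings. RMA as generally described makes array distributions alike, which would hide a shift of most transcripts. Array medians differ by tissue, and the test between tissues assumes that such a factor cancels.

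The log2 of the value was taken with nothing added. Of 12488 probe sets 66 controls were left out, and all 12422 others were tested without a filter on dim ones. According to the platform annotation, 10833 name 1 gene (8251 symbols), 396 several and 1193 none. Of those naming 1 gene, 10817 matched RefSeq's gene table (GRCm38.p6).

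All 26 hippocampus arrays were fitted with limma 3.58.1 in R 4.3.3 (lmFit, eBayes), with arm and batch as fixed terms, two-sided, Benjamini-Hochberg adjusted, threshold 0.05. The fit was tested on simulated data. Named genes were those past the threshold, the 12 higher and 12 lower probe sets with the smallest p, the immediate early genes, and up to 4 members of other lists with the smallest p plus members that define a pathway. Of 654 entries in 28 lists, 475 had a probe set, and 1 list is not reported here. Members, lists and tests were chosen with earlier results of these data known. Alternatives changed the arrays, the batch term, normalization, offset, filter, variance model and probe sets. No paired analysis was possible because the arms share no replicate numbers.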

Additional observations from a re-analysis of the deposited data

Results flagged for a closer look

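In some genes 1 array lay far from the rest of its arm, by a gap that was a large part of the arm's range. This was seen in 19 of 154 arm and gene pairs over 77 genes. The arms were pooled over batches, the pairs share arrays, and the genes were chosen partly by p. No rate due to chance is therefore set beside this count. Values are log2 intensities.

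NH 100 (batch 4) was the lowest NH array in Camk2a (6.92, the next at 8.28), Map2 (5.67), Elk1 (6.70), Prox1 (5.15) and Rraga (8.01), and the highest in Actb (9.90) and Adcy9 (8.48). CS 109 (batch 4) was the lowest CS array in Creb1 (5.56) and Prox1 (5.39) and the highest in Egr2 (5.62). CS 85 (batch 4) was the highest CS array in Camk2a (10.17, the next at 8.90), Grin2b (6.63) and Fosl2 (6.78). NH 82 (batch 6) was the highest NH array in Ttr (8.72), and NH 111 (batch 4) in Ntrk2 (6.10). CS 75 (batch 6), the only CS array of its batch, was the lowest in Rabepk (4.75). CS 31 (batch 5) was the highest in Btg2 (8.56), CS 15 (batch 5) in Cmpk2 (5.63), and NH 66 (batch 7) was the lowest NH array in Lrrc6 (2.74). Of these 19 values, 13 came from the 3 arrays NH 100, CS 109 and CS 85, all of batch 4.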

How the results depend on the processing

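The number of probe sets past the threshold was 1 and became 0 with only the CS and NH arrays (limma; 252 at unadjusted p under 0.05), 0 within batch 6 alone (1287), 0 with probe sets of a gene averaged (135), 0 without both NH 100 and CS 109 (181) and 5 without a batch term (Fos, Nr4a1, Junb, Pura and Klf13, the last 2 named after their values were seen). Leaving out 1 array at a time gave 0 to 1. Fos kept its direction throughout and lost its call with only the CS and NH arrays (0.93), within batch 4 (0.98), within batch 6 (0.85), averaged over its probe sets (0.47) and without both NH 100 and CS 109 (0.77), and ranged from 0.79 to 1.15 with 1 array left out. Its exact permutation p was 0.0333 under the other scalings and 0.05 to 0.1 with 1 array left out, where fewer arrangements exist. The immediate early median of 0.02 was 0.0677 without a batch term, 0.0042 within batch 4 alone and 0.0107 to 0.0536 with 1 array left out. Of 77 other genes under 31 alternatives, 36 changed sign at least once, 16 of them without NH 100 (Camk2a from 0.59 to -0.14, Map2 from 0.48 to -0.08). Of these 36, 32 had unadjusted p over 0.05 to begin with. The other 4 were Dynll2 (-0.13 without a batch term, -0.24 within batch 6), Laptm4a (-0.0018 and -0.0091), Rraga (-0.0485 within batch 6) and Tmed9 (-0.14 within batch 6). The cause was not tested. All differences rest on 4 NH arrays that share a batch with CS.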
